A study of Homo sapiens with 8 samples.

Results

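The MYC, MAX and MXD network is a set of DNA-binding proteins that pair with MAX or MLX at the same short DNA element. The 10 genes described are MYC, MYCN, MAX, MXD1, MXD3, MXD4, MXI1, MNT, MLX and MGA, and a probe set, a group of probes read as 1 value, was included where the array's annotation names one of them. The arrays hold 36 such probe sets. Of these, 33 name 1 gene and cover 9 of the 10 genes, out of 19775 genes measured that way, and the other 3 name MXD4 together with the microRNA gene MIR4800.

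MYC and MYCN bind DNA as pairs with MAX at E boxes and recruit histone acetyltransferases, which raises transcription of genes for growth, metabolism and ribosome production. MXD1, MXD3, MXD4, MXI1 and MNT pair with MAX at the same elements and recruit SIN3 and histone deacetylases, which lowers transcription there. MLX is related to MAX and pairs with MLXIP at glucose-responsive genes, and MGA pairs with MAX within a Polycomb complex. In T-cell acute lymphoblastic leukemia (T-ALL), MYC is a direct target of NOTCH1, the receptor whose release from the membrane needs gamma secretase.

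CUTLL1, a T-ALL cell line with a rearranged NOTCH1 gene, was cultured for 48 h under 4 treatments, with 2 arrays each. The combination group received PF-03084014, a gamma secretase inhibitor, plus dexamethasone, a synthetic glucocorticoid. The other groups received PF-03084014 alone, dexamethasone alone, or DMSO, the vehicle, and each compound was used at 1 microM. All groups are 1 cell line, and the labels do not say whether the 2 samples of a group were separate cultures, so the p-values cover the spread between these samples alone, which may be technical.

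The element the network reads is the E box CACGTG, which reads the same on both strands. It lay within the 250 bases upstream of the start of 3 of the 9 member genes for which RefSeq promoters of GRCh38.p14 were matched, which were MXD4, MNT and MLX (3 of 14 promoter windows). Of 35116 such windows of all genes, 6.34% hold it. No promoter was matched for MYC, so MYC was not searched. The sequences below show the element in those 3 promoters, 5′ to 3′ on the gene's own strand, with the E box in capitals and nearby bases in lower case. The MXD4 stretch is chr4:2262295-2262359 on the minus strand, that of MNT is chr17:2401201-2401300 on the minus strand, and that of MLX is chr17:42567003-42567099 on the plus strand.
MXD4: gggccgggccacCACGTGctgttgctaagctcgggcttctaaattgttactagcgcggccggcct
MNT: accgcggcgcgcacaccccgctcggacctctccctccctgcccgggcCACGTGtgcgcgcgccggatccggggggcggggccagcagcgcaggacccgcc
MLX: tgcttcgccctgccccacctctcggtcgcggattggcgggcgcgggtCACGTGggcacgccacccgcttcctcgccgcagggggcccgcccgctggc
The first base of the E box lay 238 bases upstream of the start in MXD4, 193 in MNT and 50 in MLX. TGGGAA, a core motif of RBPJ, the DNA-binding partner of NOTCH1, was searched on both strands, where it reads TTCCCA on the other. It was found upstream of MXI1 and MYCN (2 of the 14 windows), and in 20.8% of all windows. MYC was again not searched.

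The second combination array stood apart, whose median intensity was 76.3, while the remaining 7 arrays had medians of 61.8 to 63.9. The Pearson correlation between the 2 combination arrays was 0.980, against 0.991 to 0.993 within the other groups. Results on the combination that turn on 1 of its arrays are also given without that array. The treatments registered in genes known to respond to them. The NOTCH1 targets NRARP, DTX1 and HES1 fell under PF-03084014 (log2 differences of -2.66, -2.18 and -1.74), and the glucocorticoid receptor targets TSC22D3 and FKBP5 rose under dexamethasone (3.34 and 0.68). All 9 T-lineage markers examined had intensities of at least 100 on every array, and their summed intensity was 50619 to 57972. The summed intensity was 477 to 760 for 4 B-lineage markers, 182 to 279 for 4 myeloid, 146 to 255 for 3 erythroid and megakaryocyte, and 278 to 531 for 5 epithelial and stromal markers. CD79A, a B-cell receptor component, made up most of the B-lineage signal and had 504 to 585 on the combination arrays, against 297 to 300 on the DMSO arrays. Its part in the results was not tested.

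Of the 9 genes, 1 rose with the combination against DMSO, which was MAX, and none was called in any other comparison. A call is an adjusted p under 0.05 in a limma fit of all 8 arrays, adjusted over all genes, and values after ± are standard errors of that fit (n = 2 arrays per group). The background is the share of all genes called. It was 12.0% for the combination against DMSO, so 1 call among 9 genes is close to it. The background was 0.824% for PF-03084014 and 0.101% for dexamethasone against DMSO, with 0 of 9 network genes called in limma in either. There 4 and 2 of the 9 had an unadjusted p under 0.05 in limma, as had 2621 and 1771 of all 19775 genes. For the combination the background was 7.26% against dexamethasone and 2.87% against PF-03084014, again with 0 of 9 called in limma. In these comparisons 3 and 2 of the 9 had an unadjusted p under 0.05 in limma, as had 5125 and 3695 of all genes. Precision is limited by the number of arrays. In a bulk extract, fewer cells carrying a transcript and less of it per cell cannot be told apart.

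**Figure D1:**
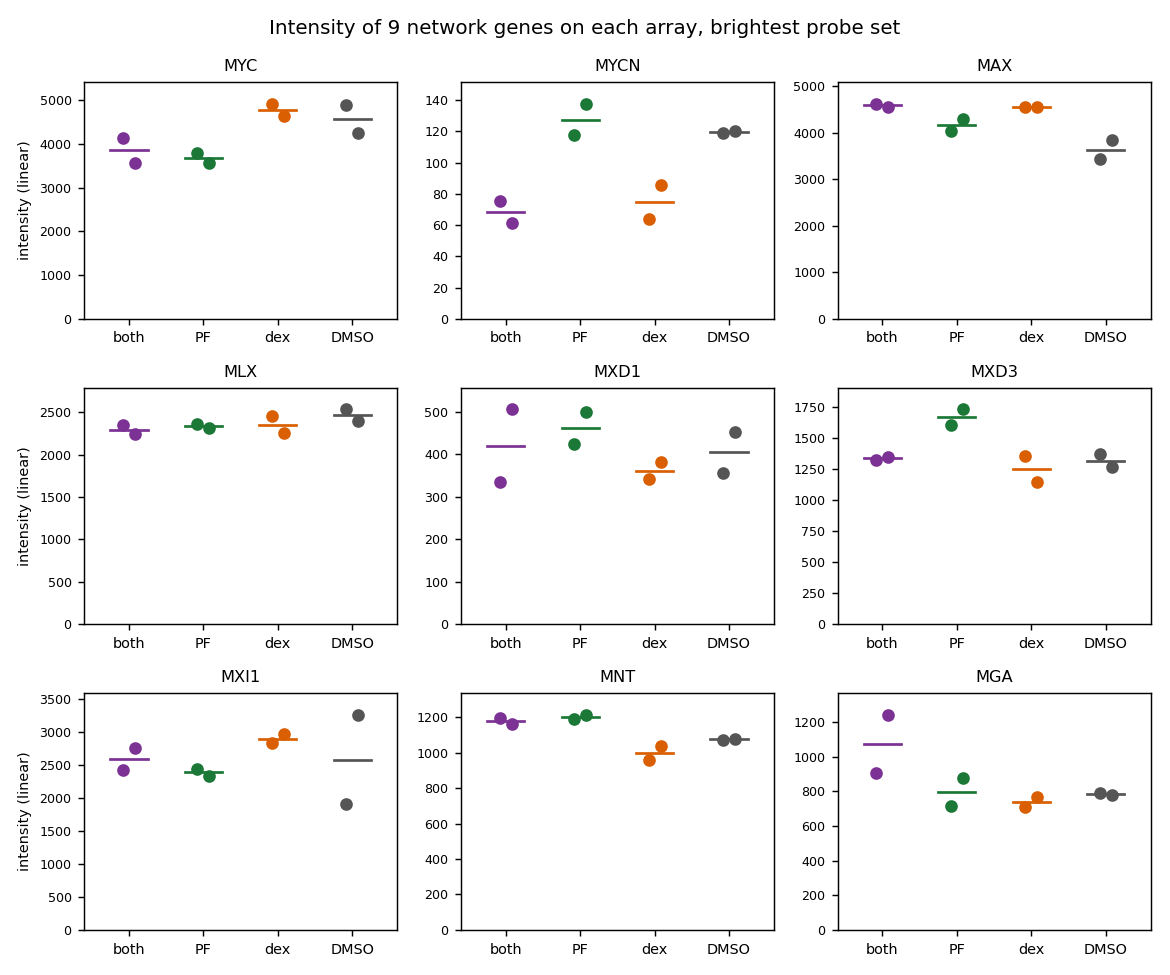
Intensity (linear scale, axes from 0) of the brightest probe set of each of 9 network genes on each of 8 arrays, by group: both compounds (both), PF-03084014 (PF), dexamethasone (dex) and DMSO. Points are arrays and lines are group means; the combination and PF-03084014 arrays of MYC lie below both DMSO arrays, and those of MAX lie above them.

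MYC, the activator that gives the network its name, was bright on every array. Its probe set 202431_s_at had intensities of 4145 and 3572 with the combination and 3791 and 3558 with PF-03084014. It had 4916 and 4628 with dexamethasone, against 4878 and 4256 with DMSO. Each array that had received PF-03084014, alone or with dexamethasone, lay below both DMSO arrays, while the dexamethasone and DMSO arrays overlapped. The log2 difference from DMSO was -0.31 ± 0.10 for PF-03084014 (80.6% of the DMSO level, adjusted p = 0.280) and -0.24 ± 0.10 for the combination (84.5%, adjusted p = 0.190), and neither was called. It was 0.07 ± 0.10 for dexamethasone (adjusted p = 0.956). The combination stood -0.31 ± 0.10 from dexamethasone (adjusted p = 0.135) and 0.07 ± 0.10 from PF-03084014 (adjusted p = 0.755), and these comparisons share arrays with those above. Without the second combination array these estimates were -0.20 and 0.17, and without the first they were -0.42 (adjusted p = 0.0482) and -0.04. The estimate for the combination against DMSO was -0.14 without its second array and -0.35 without its first. Against DMSO, the sign for PF-03084014 and for the combination was negative under each of 17 alternative settings. Only the settings that rescaled the arrays could have changed it, since MYC has 1 probe set and each of these arrays lay below both DMSO arrays.

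MYCN, the paralog of MYC best known from neuroblastoma, was dim. All 10 of its probe sets had a mean intensity below 100, and the highest single value was 138. Its brightest probe set, 209757_s_at, had 75.2 and 61.1 with the combination and 117 and 138 with PF-03084014. It had 64.2 and 85.4 with dexamethasone, against 119 and 120 with DMSO. The 4 arrays with dexamethasone, alone or combined, were the low ones. The log2 difference from DMSO was -0.82 ± 0.21 for the combination (adjusted p = 0.0727), 0.09 ± 0.21 for PF-03084014 (adjusted p = 0.959) and -0.69 ± 0.21 for dexamethasone (adjusted p = 0.437). The estimate for the combination was -0.97 without its first array and -0.67 without its second. The intensities of 209757_s_at overlap those of 27 bacterial control probe sets, whose highest value was 64.7 to 119 per array. These controls were picked by name and taken as not spiked in, which was not checked. On another of its probe sets, 209756_s_at, the combination arrays had 42.1 and 30.7, the PF-03084014 arrays 52.6 and 46.8 and the dexamethasone arrays 48.3 and 79.6, against 50.4 and 42.6 with DMSO. There the dexamethasone arrays were not low, at a log2 difference of 0.42 ± 0.30.

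MAX, the obligate partner of MYC, the MXD proteins, MNT and MGA, rose with the combination on its brightest probe set. Probe set 209332_s_at had 4618 and 4549 with the combination and 4038 and 4286 with PF-03084014. It had 4559 and 4541 with dexamethasone, against 3436 and 3831 with DMSO. All treated arrays were above both DMSO arrays. The log2 difference from DMSO was 0.34 ± 0.06 for the combination (1.26-fold, adjusted p = 0.0290). It was 0.20 ± 0.06 for PF-03084014 (1.15-fold, adjusted p = 0.261) and 0.33 ± 0.06 for dexamethasone (1.25-fold, adjusted p = 0.232), neither of which was called. The call for the combination ended under 11 of 18 alternative settings, among them with the mean of all MAX probe sets (0.12, adjusted p = 0.487), without the second combination array (0.35, adjusted p = 0.0736) and without either PF-03084014 array, either dexamethasone array or the first DMSO array (adjusted p = 0.0615 to 0.0833). The estimate was above 0 in all 18.

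The other MAX probe sets did not all run with it. Probe set 209331_s_at had 2215 and 2139 with the combination, 2152 and 2186 with PF-03084014 and 2319 and 2292 with dexamethasone, against 1833 and 1945 with DMSO. It showed the same order of treated over DMSO arrays, and its log2 difference for the combination was 0.20 ± 0.04 (adjusted p = 0.0501 over all probe sets with 1 gene). Its correlation with 209332_s_at over the 8 arrays was 0.922. Probe set 214108_at had 229 and 272 with the combination, 167 and 194 with PF-03084014 and 187 and 178 with dexamethasone, against 208 and 211 with DMSO, so that only the combination arrays were above DMSO. On 210734_x_at the combination and DMSO arrays overlapped (log2 difference 0.01 ± 0.11). On 208403_x_at the combination arrays had 237 and 96.0, and the DMSO arrays 158 and 186 lay between them.

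MLX, the partner of MLXIP, and of MXD1, MXD4 and MNT, was not called in any comparison. Its brightest probe set, 213708_s_at, had 2345 and 2242 with the combination and 2362 and 2313 with PF-03084014. It had 2452 and 2254 with dexamethasone, against 2532 and 2398 with DMSO. The log2 differences from DMSO were -0.10 ± 0.06 for the combination, -0.08 ± 0.06 for PF-03084014 and -0.07 ± 0.06 for dexamethasone. Their adjusted p-values were 0.298, 0.696 and 0.847. The other 5 MLX probe sets had lower mean intensities (59.9 to 1167) and went both ways with the combination. Probe set 217909_s_at had 832 and 535 with the combination, against 880 and 883 with DMSO. Probe set 1570347_at had 305 and 444, against 239 and 277.

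Among the MAX-bound repressors, MXD1, MXD3 and MXI1 were not called. MXD3, a member of the family found in proliferating cells, had 1325 and 1352 with the combination and 1608 and 1733 with PF-03084014. It had 1361 and 1146 with dexamethasone, against 1370 and 1266 with DMSO. Both PF-03084014 arrays were the highest of the 8, at a log2 difference from DMSO of 0.34 ± 0.10 (1.27-fold, adjusted p = 0.215). The combination overlapped DMSO (0.02 ± 0.10, adjusted p = 0.916) and stood -0.32 ± 0.10 from PF-03084014 (adjusted p = 0.168). MXD1, which rises as many cell types differentiate, had 334 and 505 with the combination, 423 and 499 with PF-03084014 and 341 and 380 with dexamethasone, against 356 and 453 with DMSO on probe set 226275_at. The DMSO arrays overlapped each treated group, and the log2 difference of 0.03 ± 0.24 for the combination was -0.27 without its second array and 0.33 without its first. On the dimmer MXD1 probe set 228846_at the combination arrays had 136 and 138, the PF-03084014 arrays 168 and 184 and the dexamethasone arrays 162 and 195, against 164 and 189 with DMSO. Both combination arrays were the lowest there, at a log2 difference from DMSO of -0.36 ± 0.14 (adjusted p = 0.195). The remaining MXD1 probe set, 206877_at, was dim, with a mean intensity of 31.8. On it both combination arrays were the highest, at 45.6 and 46.3, a log2 difference from DMSO of 0.68 ± 0.34 (adjusted p = 0.302). MXI1, also called MXD2, had 2426 and 2748 with the combination, 2438 and 2331 with PF-03084014 and 2827 and 2957 with dexamethasone, against 1898 and 3253 with DMSO. The 2 DMSO arrays held the lowest and the highest value of the 8, and the standard error of a difference was 0.25.

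The largest difference from DMSO of the 36 probe sets was on 212346_s_at under each treatment, and this is 1 of the 3 that name MXD4 and MIR4800. MXD4 is a MAX-bound repressor linked to the end of proliferation, and MIR4800 lies within the span of MXD4 in RefSeq, so the annotation does not settle which transcript was read. They were tested in a fit of all 54675 probe sets, chosen after the annotation was seen. Probe set 212346_s_at had 419 and 356 with the combination and 253 and 286 with PF-03084014. It had 267 and 282 with dexamethasone, against 120 and 119 with DMSO. Both combination arrays were highest, both DMSO arrays lowest, and the single compounds lay between. The log2 difference from DMSO was 1.69 ± 0.11 for the combination (3.23-fold, adjusted p = 0.00555) and 1.17 ± 0.11 for PF-03084014 (2.25-fold, adjusted p = 0.0427), and both were called. It was 1.20 ± 0.11 for dexamethasone (2.30-fold, adjusted p = 0.0717). Of all probe sets, 3.18% were called higher with the combination, 0.137% with PF-03084014 and 0.0329% with dexamethasone.

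The other pair of these probe sets had the same direction. Probe set 210778_s_at had 303 and 231 with the combination and 203 and 140 with PF-03084014. It had 263 and 190 with dexamethasone, against 107 and 105 with DMSO, and its log2 difference for the combination was 1.32 ± 0.26 (adjusted p = 0.0553). Probe set 212347_x_at had 412 and 262 with the combination and 256 and 276 with PF-03084014. It had 317 and 278 with dexamethasone, against 235 and 190 with DMSO, and its log2 difference for the combination was 0.63 ± 0.24 (adjusted p = 0.206), with 0.96 without the second combination array and 0.31 without the first. On each of the 3 probe sets, all treated arrays lay above both DMSO arrays, and their pairwise correlations over the 8 arrays were 0.807 to 0.875. The combination stood above PF-03084014 on 212346_s_at by 0.52 ± 0.11 (adjusted p = 0.126) and above dexamethasone by 0.49 ± 0.11 (adjusted p = 0.0925), which was not called. The combination call on 212346_s_at held under 15 of 16 alternative settings, and ended with only the groups compared in the fit (adjusted p = 0.122). The PF-03084014 call ended under 12 of 16, for example without the first DMSO array (adjusted p = 0.132) or the second (0.111), without the first PF-03084014 array (0.0782) or the second (0.129), and without either dexamethasone array (0.157).

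**Figure D2:**
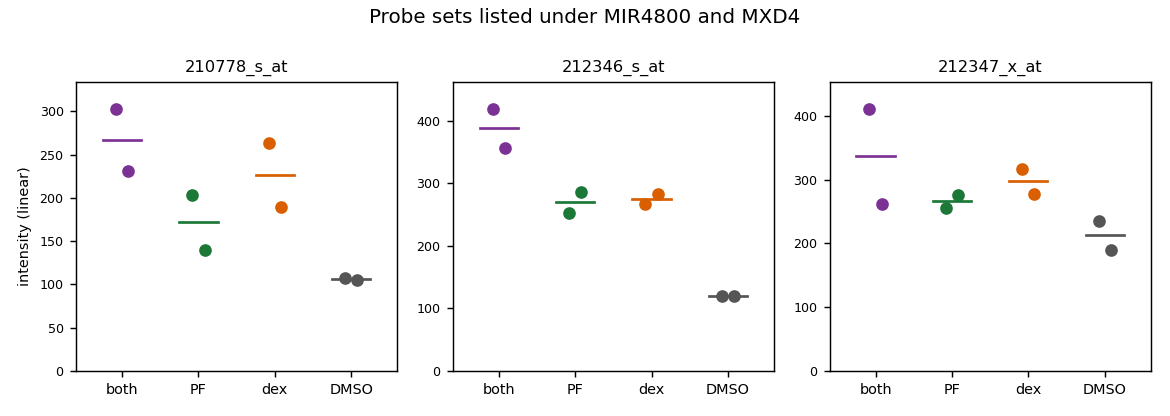
Intensity (linear scale, axes from 0) on each of 8 arrays of the 3 probe sets that name MIR4800 and MXD4, by group: both compounds (both), PF-03084014 (PF), dexamethasone (dex) and DMSO. Points are arrays and lines are group means; every treated array lies above both DMSO arrays on each probe set.

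MNT, the widely expressed MAX-bound repressor that opposes MYC in dividing cells, had 1193 and 1165 with the combination and 1188 and 1214 with PF-03084014. It had 957 and 1036 with dexamethasone, against 1074 and 1077 with DMSO. Arrays that had received PF-03084014, alone or combined, were above DMSO, and the dexamethasone arrays were below it. The log2 difference from DMSO was 0.13 ± 0.05 for the combination (adjusted p = 0.160), 0.16 ± 0.05 for PF-03084014 (adjusted p = 0.266) and -0.11 ± 0.05 for dexamethasone (adjusted p = 0.622). The combination stood 0.24 ± 0.05 above dexamethasone (1.18-fold, adjusted p = 0.0515), and this was not called.

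MGA, the scaffold that joins MAX to a Polycomb complex, had higher intensities with the combination on its brighter pair of probe sets. Probe set 212945_s_at had 905 and 1242 with the combination and 715 and 879 with PF-03084014. It had 709 and 766 with dexamethasone, against 791 and 781 with DMSO, a log2 difference of 0.43 ± 0.17 for the combination (adjusted p = 0.181). The estimate was 0.20 without the second combination array and 0.66 without the first (adjusted p = 0.0338). Probe set 230848_s_at had 452 and 533 with the combination and 362 and 343 with PF-03084014. It had 328 and 287 with dexamethasone, against 344 and 326 with DMSO. Both combination arrays were the highest of the 8. It rose with the combination by 0.55 ± 0.11 against DMSO (1.46-fold, adjusted p = 0.0483) and by 0.68 ± 0.11 against dexamethasone (1.60-fold, adjusted p = 0.0445). Each call ended under 12 of 16 settings. Against DMSO it ended without any single array except the first combination array, for example without the second (0.43, adjusted p = 0.105), and against dexamethasone likewise (0.56, adjusted p = 0.0897).

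The probe sets of MGA did not all share that direction. On 235409_at the combination arrays had 327 and 197, the PF-03084014 arrays 402 and 237 and the dexamethasone arrays 331 and 315, against 279 and 394 with DMSO. Its correlation with 212945_s_at over the 8 arrays was -0.809. Over the 33 probe sets that name 1 gene, 2 were called with the combination against DMSO, both higher (MAX 209332_s_at and MGA 230848_s_at), where 7.95% of all such probe sets were called. Against dexamethasone 1 was called, where 3.84% of all were.

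**Figure D3:**
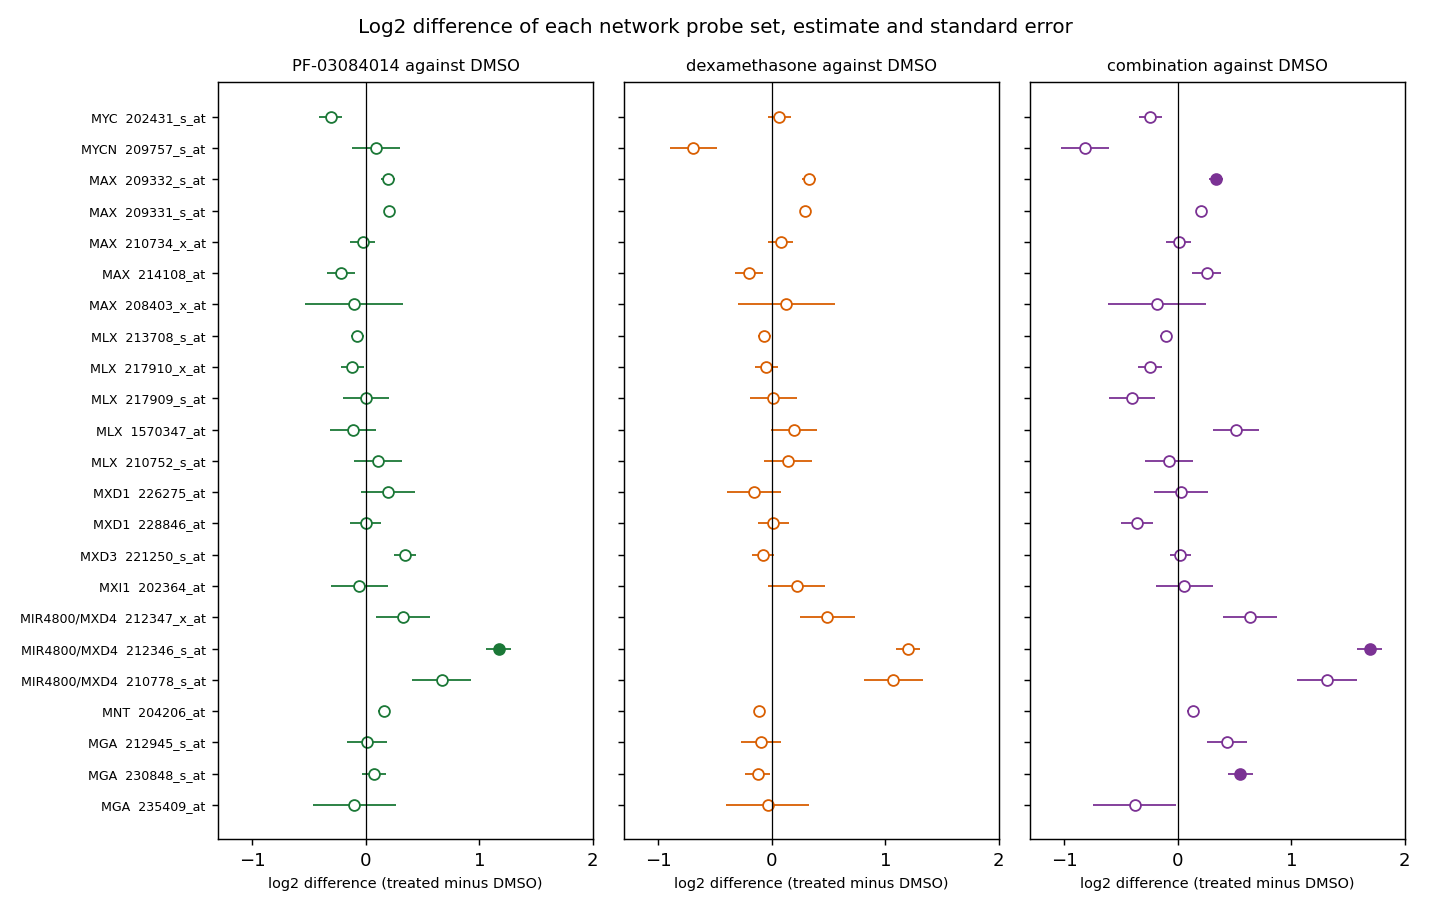
Log2 difference from DMSO of the probe sets of the network with a mean intensity of at least 100, and of the brightest MYCN probe set, for each treatment. Points are estimates, bars are standard errors of the limma fit (2 arrays per group), and filled points were called at an adjusted p under 0.05; filled points lie on MAX 209332_s_at, MGA 230848_s_at and the MIR4800/MXD4 probe set 212346_s_at.

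The interaction asks whether the combination departs from the sum of the log2 differences of the single compounds. Its background was 0, since limma called 0 of 19775 genes, of which 1798 had an unadjusted p under 0.05. None of the 9 network genes was called, and none had an unadjusted p under 0.05 in limma. On the MIR4800/MXD4 probe set 212346_s_at the interaction was -0.68 ± 0.15 (adjusted p = 0.419), so its combination value was below the sum of its single-compound values, and this was not called.

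Of 37 genes listed as activated by MYC, 31 were measured by a probe set with 1 gene. With the combination against DMSO, 7 of the 31 fell and none rose, 29 lay below 0, and the median log2 difference was -0.33, beside 0.06 over all genes. With PF-03084014 none was called in limma, 29 lay below 0 and the median was -0.25, beside 0.02 over all genes. With dexamethasone none was called, 16 lay below 0 and the median was 0.00, beside 0.01. The 3 comparisons share the DMSO arrays, and the shares called can be read against the backgrounds above. The count of 7 was 7 without the second combination array and 15 without the first, where 31.4% of all genes were called. It fell without either dexamethasone array or either DMSO array, as did the count over all genes. The list median was -0.46 to -0.27 under 18 alternative settings.

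PKM, the pyruvate kinase of glycolysis, had the largest fall in that list. It had 874 and 619 with the combination and 1608 and 1549 with PF-03084014. It had 1717 and 1576 with dexamethasone, against 1939 and 2033 with DMSO, a log2 difference of -1.43 ± 0.16 for the combination (adjusted p = 0.00818), and its call ended without the first DMSO array (adjusted p = 0.0504) or the second (0.0542). CDC25A, a phosphatase that activates cyclin-dependent kinases, had 1285 and 1060 with the combination and 2101 and 2143 with PF-03084014. It had 1991 and 1937 with dexamethasone, against 2186 and 2231 with DMSO, a difference of -0.92 ± 0.09 for the combination (adjusted p = 0.00601). For both genes the combination arrays lay far below the other 6 arrays. The remaining 5 that fell, named after their values were seen, were CDK4 (-0.84) and E2F1 (-0.66), which drive entry into the cell cycle, IMPDH2 (-0.55) and CAD (-0.47) of nucleotide synthesis, and LDHA (-0.33) of glycolysis. WDR12, a ribosome assembly factor, had the smallest p in the list with PF-03084014 (-0.44 ± 0.07, adjusted p = 0.0763). ODC1, the first enzyme of polyamine synthesis, had the smallest with dexamethasone (0.22 ± 0.07, adjusted p = 0.428).

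Within the same list, 8 of 31 were called lower and none higher for the combination against dexamethasone, where 7.26% of all genes were called in either direction. The list median was -0.36, beside 0.04 over all genes. Against PF-03084014, 3 were called lower and none higher, where 2.87% of all genes were called, with a median of -0.12, beside 0.03. These comparisons share the combination arrays with the one against DMSO. The count of 8 rose without the first combination array, as did that over all genes, and fell without the second or either DMSO array. No call was left without any single PF-03084014 or dexamethasone array. The count of 3 also rose without the first combination array, as did that over all genes. There no call was left without any single PF-03084014, dexamethasone or DMSO array. Shares of all genes in the other settings are not given here. The list median was -0.52 to -0.34 against dexamethasone and -0.25 to -0.02 against PF-03084014 under 18 alternative settings.

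**Figure D4:**
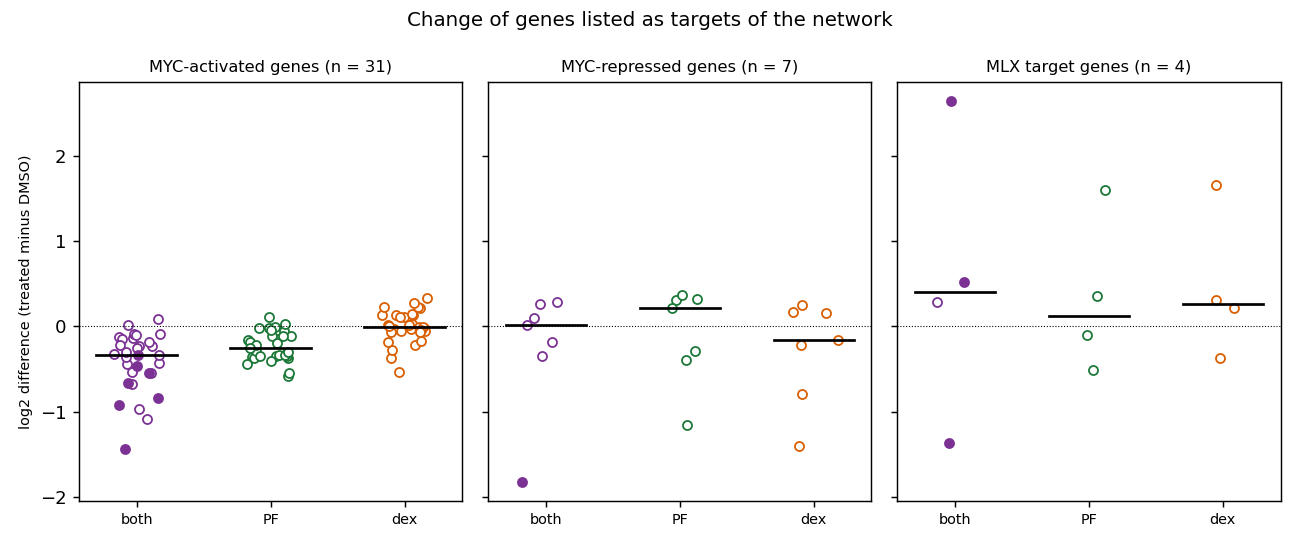
Log2 difference from DMSO of genes listed as activated by MYC, as repressed by MYC and as bound by MLX, for both compounds (both), PF-03084014 (PF) and dexamethasone (dex). Each point is a gene, filled where called at an adjusted p under 0.05, and black lines are list medians; the MYC-activated genes have medians of -0.33, -0.25 and 0.00 in that order.

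Of 7 genes listed as repressed by MYC, 1 fell with the combination and none rose, a share near the 12.0% of all genes called, with a median log2 difference of 0.01, beside 0.06 over all genes. The gene was CDKN1A, the cell-cycle inhibitor p21. It had 79.3 and 117 with the combination and 161 and 145 with PF-03084014. It had 116 and 142 with dexamethasone, against 410 and 282 with DMSO, so all treated arrays were below both DMSO arrays. The combination intensities lay within the range of the bacterial control probe sets on those arrays, so the size of the fall depends on a dim signal. The log2 difference was -1.82 ± 0.28 for the combination (adjusted p = 0.0177) and -1.40 ± 0.28 for dexamethasone (adjusted p = 0.245). The combination call ended without either PF-03084014 array (adjusted p = 0.0516 and 0.0518) or the first DMSO array (0.0839), and without the second DMSO array 1 of the 7 was called higher. None of the 7 was called with PF-03084014 (median 0.22, beside 0.02) or dexamethasone (median -0.15, beside 0.01). The gene with the smallest p under PF-03084014 was GADD45A, a DNA damage response gene, at -0.28 ± 0.05 (adjusted p = 0.103).

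Of 4 glucose-responsive genes listed as bound by MLX with MLXIP, 2 rose and 1 fell with the combination, where 12.0% of all genes were called. The median of the 4 was 0.40, beside 0.06 over all genes. TXNIP, which limits glucose uptake and binds thioredoxin, had 346 and 307 with the combination and 142 and 177 with PF-03084014. It had 178 and 154 with dexamethasone, against 45.8 and 60.1 with DMSO. All treated arrays were above DMSO, with the combination highest. Its log2 difference was 2.63 ± 0.21 for the combination (6.21-fold, adjusted p = 0.00392), 1.59 ± 0.21 for PF-03084014 (adjusted p = 0.0506) and 1.66 ± 0.21 for dexamethasone (adjusted p = 0.112). Its DMSO intensities were within the range of the bacterial control probe sets, so the fold depends on a dim signal there.

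ARRDC3, an arrestin-domain relative of TXNIP, rose with the combination by 0.52 ± 0.05 (adjusted p = 0.00565), at 1973 and 1924 against 1312 and 1409 with DMSO. KLF10, a repressor of the Krüppel-like family, fell by 1.36 on the log2 scale (adjusted p = 0.00842), at 647 and 878 against 1870 and 2003, and its call ended without the second DMSO array (adjusted p = 0.0555). None of the 4 was called with PF-03084014 (median 0.13) or dexamethasone (median 0.26) alone. MLXIP itself, the partner of MLX also known as MondoA, rose with the combination. It was the 1 of 6 other E-box factors called, where 12.0% of all genes were called. It had 751 and 798 with the combination and 513 and 613 with PF-03084014. It had 480 and 498 with dexamethasone, against 420 and 444 with DMSO, a log2 difference of 0.84 ± 0.10 for the combination (1.79-fold, adjusted p = 0.00914), 0.38 ± 0.10 for PF-03084014 (adjusted p = 0.192) and 0.18 ± 0.10 for dexamethasone (adjusted p = 0.726). Its call ended under 3 of 18 alternative settings, 1 of them without the first DMSO array. Without the first combination array the list median was 0.61. The list median was 0.35 with the combination, 0.13 with PF-03084014 and 0.14 with dexamethasone.

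None of 9 corepressor subunits used by the MXD proteins and MNT was called in limma against DMSO, and their median was -0.11 with the combination, 0.03 with PF-03084014 and 0.01 with dexamethasone. Without the first combination array 4 of the 9 were called lower, where 31.4% of all genes were called. The smallest p of this list with the combination was that of SIN3B, a SIN3 scaffold (0.41 ± 0.10, adjusted p = 0.0629). With PF-03084014 it was that of RBBP4, a histone chaperone (0.08 ± 0.04, adjusted p = 0.576), and with dexamethasone that of SUDS3, a SIN3 complex subunit (-0.13 ± 0.05, adjusted p = 0.527). Of 12 MYC coactivators and partners, 2 fell with the combination, beside 12.0% of all genes called. WDR5, a subunit of histone methyltransferase complexes that also binds MYC, had 829 and 974 with the combination, against 1274 and 1270 with DMSO (-0.50 ± 0.09, adjusted p = 0.0312). RUVBL2, an ATPase of chromatin remodellers, had 4312 and 3695, against 5172 and 5114 (-0.37 ± 0.08, adjusted p = 0.0423). Both calls ended without any single PF-03084014, dexamethasone or DMSO array (adjusted p = 0.0581 to 0.167). KAT2A, the acetyltransferase GCN5, had the smallest p of this list with each single compound, at -0.40 ± 0.09 for PF-03084014 (adjusted p = 0.131) and 0.29 ± 0.09 for dexamethasone (adjusted p = 0.416).

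Of 10 regulators of MYC protein turnover, 1 rose and 3 fell with the combination, beside 12.0% of all genes called. GSK3B, the kinase that marks MYC for destruction, had 3430 and 3477 with the combination and 2783 and 2975 with PF-03084014. It had 2297 and 2429 with dexamethasone, against 2318 and 2359 with DMSO. Its log2 difference was 0.56 ± 0.05 for the combination (1.48-fold, adjusted p = 0.00447) and 0.30 ± 0.05 for PF-03084014 (adjusted p = 0.0742). The combination call ended under 3 of 18 settings, which were the common median (0.43, adjusted p = 0.0798), the mean of all GSK3B probe sets (0.23, adjusted p = 0.155) and only the groups compared in the fit (adjusted p = 0.0992). CIP2A, an inhibitor of the phosphatase that destabilises MYC, had 392 and 472 with the combination, against 605 and 722 with DMSO (-0.62 ± 0.13, adjusted p = 0.0415). AURKA, a mitotic kinase that stabilises MYCN, had 3700 and 3221, against 4473 and 4526 (-0.38 ± 0.07, adjusted p = 0.0291). The third that fell, named after its values were seen, was SKP2, a ubiquitin ligase subunit that targets MYC, with 2578 to 2811 against 3357 to 3400 (-0.33 ± 0.06, adjusted p = 0.0248). All 3 calls ended without any single PF-03084014, dexamethasone or DMSO array (for CIP2A and AURKA adjusted p = 0.0680 to 0.165), and that of CIP2A also without the first combination array (0.0611). Without that array 4 of the 10 were called higher, where 31.4% of all genes were called in either direction. With dexamethasone AURKA had the smallest p of the list (-0.18 ± 0.07, adjusted p = 0.540).

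Of 8 partners of MGA, 1 fell with the combination, a share near the 12.0% of all genes called. PCGF6, the Polycomb subunit specific to the MGA complex, had 617 and 600 with the combination, against 724 and 710 with DMSO (-0.24 ± 0.05, adjusted p = 0.0483). Its call ended without any single array except the first combination array (adjusted p = 0.0685 to 0.178), for example without the second combination array (-0.22, adjusted p = 0.0959). Without the first combination array 2 of the 8 were called higher and 2 lower, where 31.4% of all genes were called. The smallest p with PF-03084014 was that of CBX3, a heterochromatin protein (0.12 ± 0.04, adjusted p = 0.282). With dexamethasone it was that of E2F6, a repressor that recruits the complex (-0.16 ± 0.10, adjusted p = 0.775).

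Across the 8 arrays, which share the groups above, the genes whose log2 intensities ran most like those of MYC were CD47, PRKCE and DDX56, among 10792 genes with a mean intensity of at least 100. Their Pearson correlations with MYC were 0.989, 0.987 and 0.976. CD47 had 6763 and 6422 with the combination and 6664 and 6407 with PF-03084014. It had 7357 and 7041 with dexamethasone, against 7274 and 6879 with DMSO, the same split of groups as MYC over a narrower range. The genes most like MAX were H2BC5, CRB1 and VIPAS39, with correlations of 0.984, 0.972 and 0.972. H2BC5 had 550 and 534 with the combination and 411 and 450 with PF-03084014. It had 526 and 554 with dexamethasone, against 326 and 397 with DMSO, so that the DMSO arrays were lowest, as for MAX.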

How the data were processed

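RNA of 8 CUTLL1 samples was measured on Affymetrix arrays, from 200 ng of total RNA per sample with a 3′ amplification kit, per the labels' protocols. The authors deposited linear probe set intensities, and what summarisation, background step and normalization gave them is not given in the sources used here. Per array, 13.2% to 15.2% of probe sets were at or below 16. Of 54675 probe sets, 41097 name 1 gene, 1801 several and 11777 none in the platform annotation. Symbols were updated through RefSeq for 41043.

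Here intensities were floored at 16 and log2 transformed. Each of 19775 genes took its probe set with the highest mean, and limma 3.58.1 in R 4.3.3 (intensity trend, two-sided) fitted all 8 arrays with a mean per group, with 4 residual and a median of 1.35 prior degrees of freedom, and Benjamini-Hochberg adjustment. The median standard error of a difference was 0.177. Array number limits the precision. The fit was tested on simulated data. The members and lists were chosen with earlier results of these data known. Named were all members, the 2 largest called rises and falls of each list against DMSO or else its smallest p, and the 3 genes most like MYC and each called gene. Alternatives changed normalization, floor, filter, probe set choice, trend, block and arrays.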

Additional observations from a re-analysis of the deposited data

How the results depend on the processing

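The count of 9 network genes called for the combination against DMSO was 1 and became 0 with arrays set to a common median, without probe sets ending in _x_at or _s_at, with the mean of all probe sets per gene, without the intensity trend and with only the groups compared in the fit. Leaving out 1 array gave 0 to 3. Against dexamethasone the count was 0 and became 1 with quantile normalization (MNT), with genes of mean intensity of at least 100 (MGA) and with the replicate block (MYC, adjusted p = 0.0437), and leaving out 1 array gave 0 to 2, as it did against PF-03084014. The count of 2 probe sets called against DMSO became 0 with the common median, without the trend, with the replicate block and with only the groups compared, and 1, neither of those 2, with a floor of 64, and leaving out 1 array gave 0 to 7. The 1 called against dexamethasone became 0 under each of these 5 settings, with 0 to 7 when 1 array was left out. Leaving out 1 array gave 0 to 3 probe sets against PF-03084014 and 0 to 1 in the interaction. The highest counts were without the first combination array, where 6215 of all genes were called, and in these tests the remaining array was assumed to vary like the other groups. The cause of these changes was not tested. For most of these settings the share of all genes or probe sets called is not given here. The counts are therefore not read as results about the network. No called value changed direction. The labels do not say whether same-numbered arrays of different groups share a culture or batch. Their deviations from the group means correlated at 0.0524 to 0.208. Over all genes, the combination against DMSO called 2368 genes, 978 with the common median, 3156 at mean intensities of at least 100 and 0 with only the groups compared, and PF-03084014 called 163, 32, 426 and 0 in the same order. The common median moved the median interaction of all genes to -0.14. The 7 MYC-activated genes called lower with the combination were 3 with the common median and 0 with only the groups compared, and their median stayed between -0.46 and -0.27 under 18 settings. Signal near background limits MYCN, TXNIP and CDKN1A.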
